A study of Mus musculus with 10 samples.

Results

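The genes described here are neurotrophins and the proteins that bind them: the ligand genes Bdnf, Ntf3 and Ntf5, the receptor kinase genes Ntrk2 (TrkB) and Ntrk3 (TrkC), the p75 receptor gene Ngfr and the sortilin gene Sort1. They were taken by gene name from a table of 42465 gene models. All 7 names were found, each in a single row, and other members of the family are not reported here. The libraries came from cultured neural tube explants, which contained neural crest cells, of mouse embryos at embryonic day 9.5. There were 5 Ednrb-/- and 5 WT libraries, which the labels call biological replicates. Culture lasted 4 days in both genotypes, and the medium held 10% fetal bovine serum and EDN3 at 20 nM. EDN3 is the peptide that activates endothelin receptor type B, which Ednrb encodes. What the mutant allele of Ednrb lacks is not stated in the labels, nor whether explants were pooled, and they name no sorting of cells, so that values are of mixed cell types. The study set out to learn how melanoblasts, which give rise to pigment cells, are made to proliferate.

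Neurotrophins are secreted as precursors that proteases cut to mature dimers. The mature ligands signal through Trk receptor kinases, with brain-derived neurotrophic factor and neurotrophin-4 acting on TrkB and neurotrophin-3 mainly on TrkC, and all of them can bind p75. Precursor forms bind p75 together with sortilin. In the embryo these factors are known for the survival and growth of sensory and sympathetic neurons, and p75 is used as a surface marker of migrating neural crest cells.

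Values are in FPKM (fragments per kilobase and per unit of library depth). A gene was tested where 5 or more libraries reached 0.5 FPKM, which 6 of the 7 genes did and Ntf5 did not. Fold changes are on the log2(FPKM + 0.5) scale, Ednrb-/- minus WT, with an adjusted p (limma, Benjamini-Hochberg) under 0.05 as the threshold. Bdnf fell in Ednrb-/- explants, and the other 5 tested genes did not pass the threshold in either direction. Over all genes tested, 19.5% passed in either direction, 13.0% as lower and 6.53% as higher in Ednrb-/- libraries, so that a single gene in 6 is near the background. The median log2 fold change of the 6 was 0.0092, beside 0.0048 over all 15156 genes tested. Under quantile normalization the calls over all genes split into 1603 higher and 1730 lower, against 990 and 1966 without it. None of the 6 genes had groups that did not overlap, where 13.2% of all genes tested did.

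The level of the targeted gene went with the labels in all 10 libraries. Ednrb had between 2.34 and 11.7 FPKM in Ednrb-/- libraries, against 43.8 to 60.7 FPKM in WT libraries. Reads worked back from FPKM came to between 13022266 and 19532570 per library. Gene models above 0 numbered 20605, 16399, 17895, 23240 and 20260 in Ednrb-/- replicates 1 to 5, against 21278 to 23213 in WT libraries. Replicate 4 aside, each Ednrb-/- library lay below every WT library, and whether this bears on the genes of low level was not tested. The explants held several cell types, and their markers differed between genotypes. All 13 pan-neuronal genes tested rose, and all 10 smooth muscle genes tested fell. The pan-neuronal genes summed to between 2485 and 2831 FPKM in Ednrb-/- libraries and between 1541 and 1970 FPKM in WT libraries. Of the neural crest markers, 6 of 10 tested fell and 0 rose, and their mean log2(FPKM + 0.5) was 2.70 to 3.75 in Ednrb-/- and 4.12 to 4.24 in WT libraries. Their sums overlapped, with 152 to 436 FPKM in Ednrb-/- and 231 to 382 FPKM in WT libraries, and the most abundant gene of the list by FPKM was Crabp1, which was not called (217 ± 100.2 FPKM in Ednrb-/- and 155 ± 67.1 FPKM in WT libraries; SD, n = 5 each). Other lists fell too: 8 of 10 tested genes of Schwann cell precursors and glia, 6 of 7 of the melanocyte lineage and 10 of 11 of fibroblast-like mesenchyme. In the glial list 1 gene rose, Fabp7 (427 ± 61.5 FPKM in Ednrb-/- and 268 ± 88.8 FPKM in WT libraries). In the mesenchyme list 1 gene rose, Dcn (44.2 ± 32.2 FPKM in Ednrb-/- and 6.72 ± 2.80 FPKM in WT libraries). Both were named after their values were seen. The mean of the glial list was 1.49 to 2.30 in Ednrb-/- and 2.92 to 3.53 in WT libraries. Its sums overlapped, with 414 to 539 FPKM in Ednrb-/- and 265 to 500 FPKM in WT libraries. Fabp7 was by far the most abundant gene in these sums and is also in the list of neural tube progenitor markers. The mean of the melanocyte list was -0.19 to 0.26 in Ednrb-/- and 1.35 to 2.94 in WT libraries. The mesenchyme genes summed to between 227 and 387 FPKM in Ednrb-/- libraries and between 570 and 1613 FPKM in WT libraries. In whole explants, fewer cells of a type and less RNA per cell cannot be told apart.

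Positions are those of the table, whose identifiers belong to the C57BL/6NJ strain annotation. Bdnf (MGP_C57BL6NJ_G0026661) is on the plus strand of chromosome 2, at 115669430 to 115721724. Ntf3 (MGP_C57BL6NJ_G0031736) is on the minus strand of chromosome 6, at 132905851 to 132976560. Chromosome 7 holds Ntf5 (plus strand, 47937499 to 47943626) and Ntrk3 (minus strand, 83153690 to 83737835). Ntrk2 is on the plus strand of chromosome 13, at 60250267 to 60599545. Ngfr is on the minus strand of chromosome 11, at 100842743 to 100861943, and Sort1 on the plus strand of chromosome 3, at 113926560 to 114009187. The gene models of Bdnf, Ntf3, Ntf5, Ntrk2 and Ngfr overlapped no other model in the table. Ntrk3 overlapped 4 models and Sort1 overlapped 2, the largest in reads being the antisense model Gm9885 in Ntrk3 with at most 91 reads in a library.

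Bdnf is transcribed from several alternative starts, each joined to a common coding exon, and the FPKM of the gene sums over all of them. RefSeq (GRCm38.p6) gives 7 starts for it. A pair of promoters is printed because Bdnf is the gene that changed, each with 250 bases before and 50 bases after the start. Capitals mark a match, on either strand, to the core TGACG that cyclic AMP response elements share or to the core GGAATG of TEAD sites, motifs chosen after the values were seen. The pair is not typical of the 7 starts: start 3 is the only one with TGACG, and start 7 has the most matches to GGAATG. Start 2, which is not printed, also holds GGAATG.
Bdnf start 3, chr2:109692186-109692485, plus strand: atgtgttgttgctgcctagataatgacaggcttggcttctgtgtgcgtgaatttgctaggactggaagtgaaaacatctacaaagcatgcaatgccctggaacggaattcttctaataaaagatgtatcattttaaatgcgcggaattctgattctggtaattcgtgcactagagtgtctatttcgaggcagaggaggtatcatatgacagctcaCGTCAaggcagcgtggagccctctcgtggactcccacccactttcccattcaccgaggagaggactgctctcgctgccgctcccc
Bdnf start 7, chr2:109722671-109722970, plus strand: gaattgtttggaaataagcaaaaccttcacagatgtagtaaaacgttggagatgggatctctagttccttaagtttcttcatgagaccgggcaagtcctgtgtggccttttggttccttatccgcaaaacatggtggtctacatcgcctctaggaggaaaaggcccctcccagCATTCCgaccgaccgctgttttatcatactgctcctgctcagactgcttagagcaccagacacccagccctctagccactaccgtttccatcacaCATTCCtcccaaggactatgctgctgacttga
The first of these holds TGACG once, on the minus strand, and the second holds GGAATG at 2 places, both on the minus strand. Over all 7 windows, TGACG was in 1 and GGAATG in 2, and the CArG box that serum response factor binds was in 0. Among 32851 promoter windows of the same length, 20.8% held TGACG, 14.7% held GGAATG and 1.63% held a CArG box. No Bdnf window held more than 1 kind of these motifs. A match is a run of letters and does not show binding, and gene-level values cannot say which start was used.

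Bdnf, the ligand of TrkB, was the gene that changed. Ednrb-/- replicates 1 to 5 had 1.32, 1.20, 0.907, 1.59 and 0.844 FPKM, against 3.24, 1.38, 8.31, 6.15 and 4.08 FPKM in WT replicates 1 to 5. The Ednrb-/- libraries were all low and close together, and 4 of the 5 lay below every WT library. WT replicate 2 was the exception among WT libraries and lay within the Ednrb-/- range. The means were 1.17 ± 0.305 FPKM in Ednrb-/- and 4.63 ± 2.68 FPKM in WT libraries (SD, n = 5 each), so that WT explants held 3.95 times the Ednrb-/- level. The log2 fold change was -1.45 with a standard error of 0.35 and a 95% interval from -2.23 to -0.68 (limma, adjusted p = 0.0154). An exact two-sided permutation test of the same log2 values gave p = 0.0159, where the smallest p that 5 against 5 libraries allow is 0.00794. The values rest on 89 to 162 reads per Ednrb-/- library and 132 to 810 reads per WT library. With any 1 library left out Bdnf kept its call, with log2 fold changes from -1.77 (without WT replicate 2, limma adjusted p = 0.00112) to -1.21 (without WT replicate 3, limma adjusted p = 0.0355), and the highest adjusted p was 0.0448 (without WT replicate 4). Of all genes tested, 4.17% had a lower log2 fold change.

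**Figure D1:**
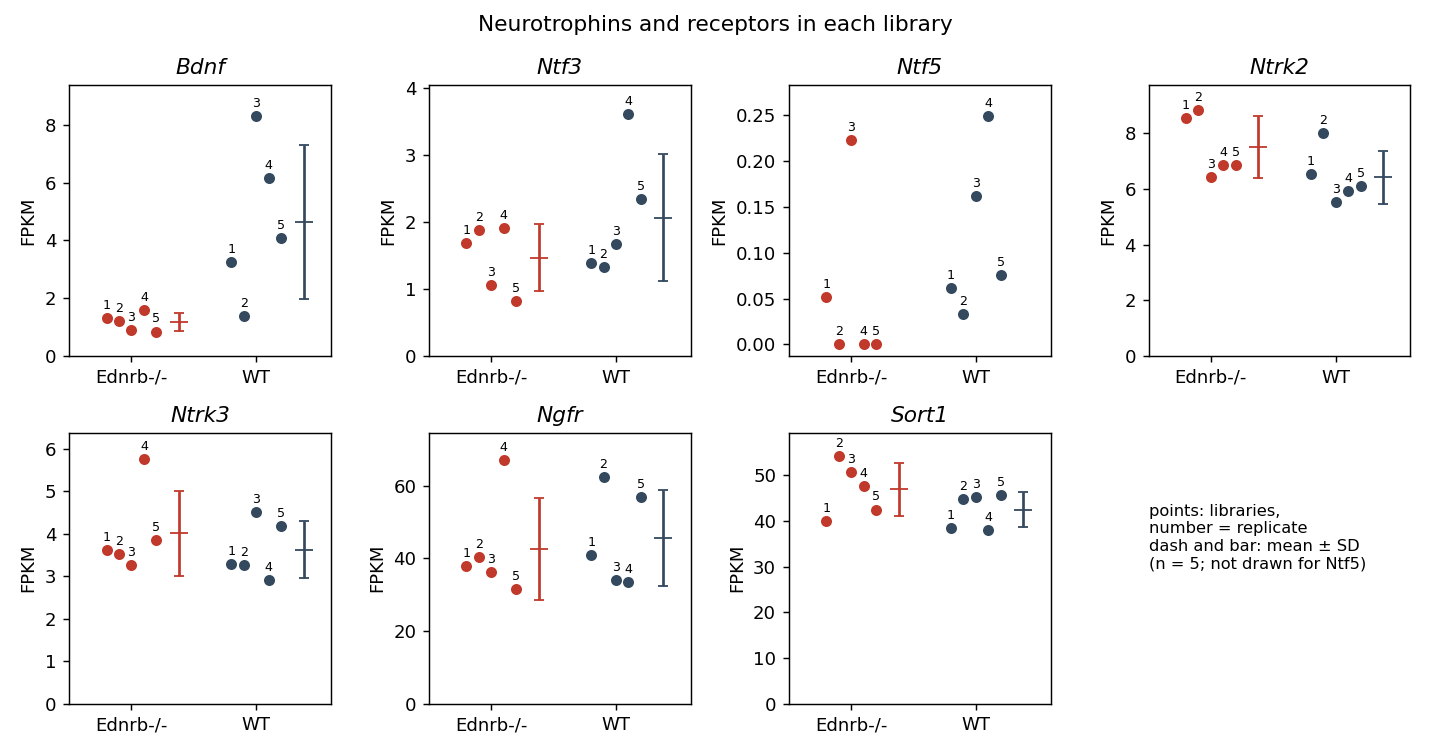
FPKM of the 7 genes in each library, Ednrb-/- left of WT; each point is a library with its replicate number, and the dash and bar give the mean and SD (n = 5, not drawn for Ntf5). The Ednrb-/- libraries lie between 0.844 and 1.59 FPKM for Bdnf, where WT libraries reach 8.31, and the groups overlap for every gene.

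Bdnf followed the smooth muscle marker mean from library to library, as did genes of other kinds. The smooth muscle markers ranged widely within each genotype: their mean log2(FPKM + 0.5) ran from 1.52 to 3.32 in Ednrb-/- libraries and from 3.38 to 5.91 in WT libraries. Their summed level was between 65.6 and 364.2 FPKM in Ednrb-/- libraries and between 398 and 2893 FPKM in WT libraries. Acta2, the smooth muscle actin, had 117, 77.5, 20.9, 129.6 and 18.0 FPKM in Ednrb-/- replicates 1 to 5, against 646, 143, 1323, 1032 and 775 FPKM in WT replicates 1 to 5. Myh11, the myosin heavy chain of mature smooth muscle, was at most 0.700 FPKM in any library and was not tested. It was listed at 0 in Ednrb-/- replicate 2, and Actg2, another smooth muscle actin, was listed at 0 in Ednrb-/- replicate 3.

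Ranked by Bdnf, the 5 libraries of each genotype stood in the same order as when ranked by the smooth muscle mean. In Ednrb-/- libraries that order was replicate 4, 1, 2, 3 and 5 from high to low, and in WT libraries it was replicate 3, 4, 5, 1 and 2. Of the 15156 genes tested, 52 (0.343%) showed that order in both genotypes, and Bdnf was the only neurotrophin or receptor gene of the 6 tested to do so. Among the 52 were 4 of the smooth muscle list, which themselves enter the mean. Others were matrix and adhesion genes such as Col1a1, Tnc, Itgb1 and Itga5, and Ctgf and Cyr61, all named after their values were seen. The order was thus not particular to contractile genes. The order was looked at for this list alone, which of the 10 marker lists had the highest r with Bdnf, so the share does not measure chance. Pearson's r between Bdnf and the smooth muscle mean was 0.96 over the 10 libraries and 0.89 after the mean of each genotype was taken away. The second value was higher than that of 97.9% of genes tested. The points share library, depth and the cell makeup of the explant, so r is a description of these 10 libraries. Once the smooth muscle mean was added as a covariate, the difference between genotypes in Bdnf was 0.14 on the log2 scale with a standard error of 0.37 (limma, adjusted p = 0.948). That fit called 0 of the 15156 genes (limma, 1138 at an unadjusted p under 0.05). The smooth muscle means of the genotypes did not overlap. The part of cells that carry these markers in the fall of Bdnf cannot be told apart from that of genotype.

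**Figure D2:**
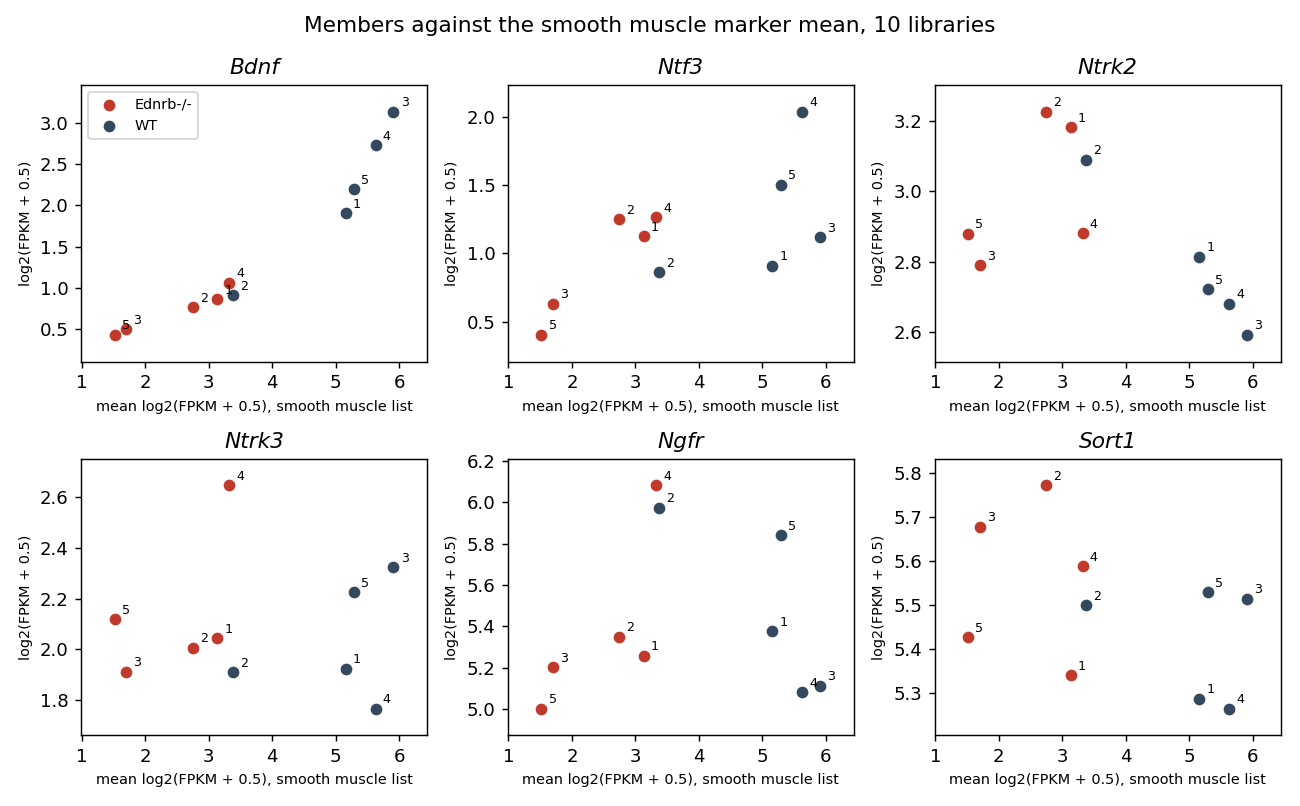
log2(FPKM + 0.5) of each of the 6 tested genes (vertical axes) against the smooth muscle marker mean on the same scale (horizontal axes) in 10 libraries, numbered by replicate. Bdnf rises with the marker mean within each genotype (r = 0.89 without the genotype means), and WT replicate 2, at a marker mean of 3.38, lies next to Ednrb-/- replicate 4 at 3.32.

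Other markers moved with Bdnf too. Over the 10 libraries its r was 0.88 with the fibroblast-like mesenchyme mean and 0.80 with the Schwann cell precursor and glia mean, lists that also differed between genotypes, and their part in the fall of Bdnf was not tested. After removal of the genotype means, r was 0.68 with the mesenchyme mean, 0.29 with the glial mean and 0.85 with the endothelium and blood mean, of whose 8 genes only 2 were tested. It was -0.79 with the sensory neuron mean and -0.73 with the neural tube progenitor mean. With the neural crest mean it was 0.07 and with the melanocyte lineage mean -0.39. Among 8303 protein-coding genes with a mean of at least 5 FPKM, the 2 with the highest r with Bdnf without the genotype means were Lhfp (0.98) and Lrrfip1 (0.98). Lrrfip1 had 4.02 ± 0.93 FPKM in Ednrb-/- and 14.9 ± 5.91 FPKM in WT libraries (SD, n = 5 each), and both genes also showed the library order given above. The r of these and of the likest genes named below was picked as the highest among 8303 genes over 10 libraries. It does not measure chance.

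Ntf3, which encodes neurotrophin-3, the main ligand of TrkC, was low and variable. It had 1.68, 1.88, 1.05, 1.90 and 0.823 FPKM in Ednrb-/- replicates 1 to 5, against 1.38, 1.32, 1.67, 3.60 and 2.33 FPKM in WT replicates 1 to 5. The groups overlapped, 2 Ednrb-/- libraries lying below every WT library and none above. The means were 1.47 ± 0.50 FPKM in Ednrb-/- and 2.06 ± 0.95 FPKM in WT libraries (SD, n = 5 each). The log2 fold change was -0.35 with a 95% interval from -0.93 to 0.23 (limma, adjusted p = 0.392). This interval holds both no change and a fall of FPKM + 0.5 to 0.524 times the WT value. At so low a level that scale understates a fall in FPKM. The gene rests on 24 to 57 reads per Ednrb-/- library and 35 to 101 per WT library, the fewest of the 6 genes tested. Its r with the smooth muscle mean was 0.69 without the genotype means, and with Bdnf 0.57. Its likest genes by the same measure were Lsm7 (0.91), of a complex that binds RNA, and Fbxo33 (0.90). With the genotype means kept, r was 0.77 for Lsm7 and 0.92 for Fbxo33.

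Ntf5, which encodes neurotrophin-4, the other ligand of TrkB, was at the limit of detection. It was listed at 0 in Ednrb-/- replicates 2, 4 and 5, and had 2 reads in replicate 1 and 8 in replicate 3. WT replicates 1 to 5 had 2, 1, 5, 8 and 2 reads. In the 3 libraries at 0, a floor of 3 reads corresponds to 0.117, 0.0940 and 0.0899 FPKM, and a count of 0 does not exclude a level up to these values. The highest value in any library was 0.249 FPKM, in WT replicate 4. The reads of the gene summed to 10 over Ednrb-/- and 18 over WT libraries, too few for a fold change to be given, and these limits cover counting error only.

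Ntrk2, which encodes TrkB, the receptor of brain-derived neurotrophic factor and neurotrophin-4, kept a narrow range. It had 8.57, 8.85, 6.42, 6.87 and 6.86 FPKM in Ednrb-/- replicates 1 to 5, against 6.54, 8.01, 5.53, 5.91 and 6.10 FPKM in WT replicates 1 to 5. All 5 Ednrb-/- libraries lay above the WT median, and 2 of them above every WT library. WT replicate 2, the lowest WT library for Bdnf, was the highest for Ntrk2. The means were 7.51 ± 1.11 FPKM in Ednrb-/- and 6.42 ± 0.96 FPKM in WT libraries (SD, n = 5 each). The log2 fold change was 0.21 with a 95% interval from -0.07 to 0.49 (limma, adjusted p = 0.277), so that a rise of FPKM + 0.5 beyond 1.41-fold lies outside the interval.

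Bdnf and its receptor gene ran in opposite orders among WT libraries. Ranked by Bdnf from high to low these were replicates 3, 4, 5, 1 and 2, and ranked by Ntrk2 they were replicates 2, 1, 5, 4 and 3. The WT order by Bdnf is also that of the smooth muscle mean, so Ntrk2 ran opposite to that mean as well. How many other genes ran in the reverse order was not counted, so the order is not particular to a ligand and its receptor. Among Ednrb-/- libraries the orders were not opposite, with replicates 4, 1, 2, 3 and 5 by Bdnf and replicates 2, 1, 4, 5 and 3 by Ntrk2. Pooled over genotypes, r was -0.71 over the 10 libraries and -0.57 without the genotype means, values that hide this difference in order, which was not tested. The ratio of Bdnf to Ntrk2 within a library, both in FPKM, was 0.154, 0.136, 0.141, 0.231 and 0.123 in Ednrb-/- replicates 1 to 5, against 0.496, 0.172, 1.502, 1.04 and 0.668 in WT replicates 1 to 5. The median ratio was 0.141 in Ednrb-/- and 0.668 in WT libraries, and the groups overlapped only through WT replicate 2 and Ednrb-/- replicate 4. Among the marker lists, Ntrk2 had its highest r without the genotype means with the sensory neuron list (0.63). Among its likest genes was Zeb1 (0.95), a repressor of epithelial genes. Truncated forms of TrkB without the kinase domain are known, and the gene-level values do not separate them from the full receptor.

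Ntrk3, which encodes TrkC, the receptor of neurotrophin-3, had a lower FPKM than Ntrk2 in every library. It had 3.62, 3.52, 3.26, 5.76 and 3.85 FPKM in Ednrb-/- replicates 1 to 5, against 3.29, 3.26, 4.50, 2.90 and 4.17 FPKM in WT replicates 1 to 5. The groups overlapped, and Ednrb-/- replicate 4 stood above all other libraries. The means were 4.00 ± 1.00 FPKM in Ednrb-/- and 3.63 ± 0.68 FPKM in WT libraries (SD, n = 5 each). The log2 fold change was 0.12 with a 95% interval from -0.25 to 0.48 (limma, adjusted p = 0.676), and -0.0086 without Ednrb-/- replicate 4 (limma, adjusted p = 0.975). The ratio of Ntf3 to Ntrk3 ran from 0.214 to 0.535 in Ednrb-/- libraries and from 0.371 to 1.24 in WT libraries. Without the genotype means, Ntrk3 had its highest r among the marker lists with Schwann cell precursors and glia (0.74). With the genotype means kept that r was 0.05, where the glial mean was lower in Ednrb-/- libraries and Ntrk3 was not called. By r without the genotype means, the likest genes of Ntrk3 were Ubn2 (0.96) and the neuron navigator gene Nav1 (0.93).

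Ngfr, which encodes the p75 receptor, was among the 2 most abundant of the 7 and did not pass the test. It had 37.8, 40.3, 36.4, 67.2 and 31.6 FPKM in Ednrb-/- replicates 1 to 5, against 41.0, 62.3, 34.1, 33.4 and 56.8 FPKM in WT replicates 1 to 5. The highest library was Ednrb-/- replicate 4, followed by WT replicates 2 and 5, and the lowest was Ednrb-/- replicate 5. The means were 42.6 ± 14.1 FPKM in Ednrb-/- and 45.5 ± 13.3 FPKM in WT libraries (SD, n = 5 each). The log2 fold change was -0.10 with a 95% interval from -0.59 to 0.40 (limma, adjusted p = 0.802), which spans 0.663 to 1.32 times the WT level, and it was 0.026 without WT replicate 2 (limma, adjusted p = 0.949). The spread within a genotype was larger than for the Trk genes, with a residual SD of 0.41 on the log2 scale beside 0.19 for Ntrk2 and 0.26 for Ntrk3. Values rest on 1961 to 4080 reads per Ednrb-/- library and 2004 to 3599 per WT library, so counting error is small beside that spread.

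Although p75 is used as a marker of migrating crest, the r of Ngfr with the neural crest mean was 0.11 without the genotype means. That mean spanned only 4.12 to 4.24 in WT libraries. Among Ednrb-/- libraries, replicate 1 (3.75) stood above the rest (2.70 to 2.99). The r therefore rests largely on 1 library and cannot show whether Ngfr follows crest. With the Schwann cell precursor and glia mean, whose list shares Sox10 and Foxd3 with the crest list, r was 0.56. The lists with which Ngfr had the highest r were neural tube progenitors (0.70) and motor neurons (0.69). Developing motor neurons are also known to carry p75. Its likest genes were Ppp1r10 (0.96), a regulator of protein phosphatase 1, and Ptch1 (0.89), the Hedgehog receptor. With the genotype means kept, r was 0.94 for Ppp1r10 and 0.75 for Ptch1.

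Sort1, which encodes sortilin, the partner of p75 for precursor forms and a sorting receptor of the Golgi and endosomes, was the steadiest of the 6. It had 40.0, 54.1, 50.7, 47.6 and 42.5 FPKM in Ednrb-/- replicates 1 to 5, against 38.5, 44.7, 45.2, 37.9 and 45.7 FPKM in WT replicates 1 to 5. The groups overlapped, with 3 Ednrb-/- libraries above every WT library. The means were 47.0 ± 5.79 FPKM in Ednrb-/- and 42.4 ± 3.84 FPKM in WT libraries (SD, n = 5 each). The log2 fold change was 0.14 with a 95% interval from -0.08 to 0.36 (limma, adjusted p = 0.355), which leaves out any rise beyond 1.29-fold. Its residual SD of 0.16 on the log2 scale was smaller than that of all but 18.8% of genes tested, where the SD of Bdnf (0.63) was larger than that of 88.5%. The likest genes of Sort1 were Ankrd13a (0.97) and Ttc3 (0.95), where r with the genotype means kept was 0.52 and 0.82. Its r of greatest size with a marker list, without the genotype means, was -0.45 with neural crest.

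**Figure D3:**
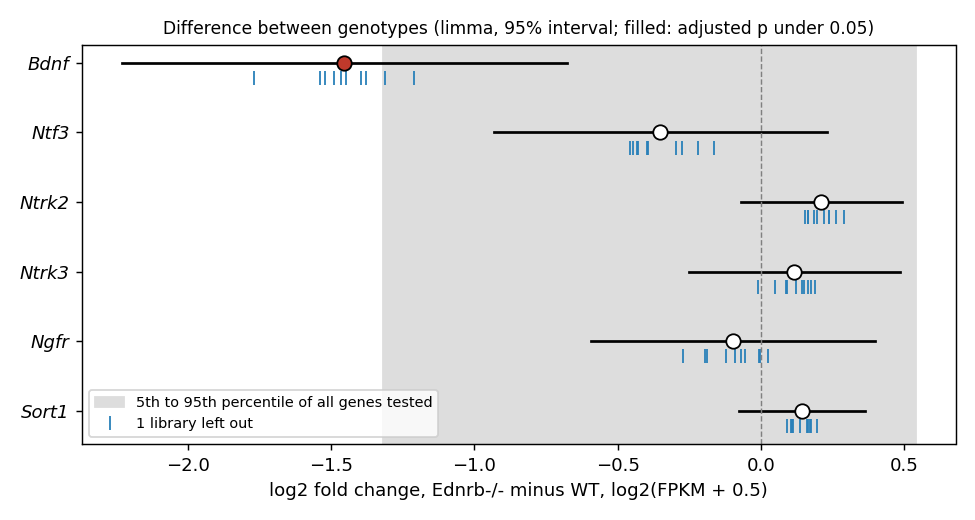
log2 fold change on the log2(FPKM + 0.5) scale, Ednrb-/- minus WT, of the 6 tested genes with 95% intervals from limma; blue ticks give the value with 1 library left out, and the grey band runs from the 5th to the 95th percentile of all genes tested (-1.32 to 0.54). Bdnf, the filled point, lies at -1.45 with all ticks below 0, and the intervals of the other 5 genes hold 0.

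By level per length, Sort1 and Ngfr stood highest, with 44.7 and 44.1 FPKM over the 10 libraries, and their ranges overlapped. Ntrk2 followed at 6.97 and Ntrk3 at 3.81 FPKM, and their ranges did not overlap in Ednrb-/- libraries (6.42 to 8.85 for Ntrk2, 3.26 to 5.76 for Ntrk3) nor in WT libraries (5.53 to 8.01 for Ntrk2, 2.90 to 4.50 for Ntrk3). Bdnf and Ntf3 came next at 2.90 and 1.76 FPKM, and Ntf5 last at 0.0856 FPKM. In Ednrb-/- libraries Bdnf and Ntf3 overlapped, with a ratio of Bdnf to Ntf3 from 0.639 to 1.03, while in WT libraries Bdnf was above Ntf3 in 4 replicates by ratios of 1.71 to 4.98 and at 1.04 in replicate 2. By means, the order within Ednrb-/- libraries was Sort1, Ngfr, Ntrk2, Ntrk3, Ntf3, Bdnf and Ntf5, and within WT libraries it was Ngfr, Sort1, Ntrk2, Bdnf, Ntrk3, Ntf3 and Ntf5. The means of Bdnf and Ntrk3 in WT libraries (4.63 and 3.63 FPKM) differed by less than the SD of Bdnf, as did those of Sort1 and Ngfr by less than the SD of Ngfr in both genotypes. Lengths bear on these levels: the model of Ntrk3 is 28402 bases long and that of Ngfr 3733 bases, so that Ntrk3 drew 1302 to 2662 reads per Ednrb-/- library at a far lower FPKM than Ngfr with 1961 to 4080. The lengths in the table were close to the exon union in GENCODE M21 for Bdnf (6199 and 6217 bases), and shorter for Ntrk2 (13806 and 19292 bases).

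**Figure D4:**
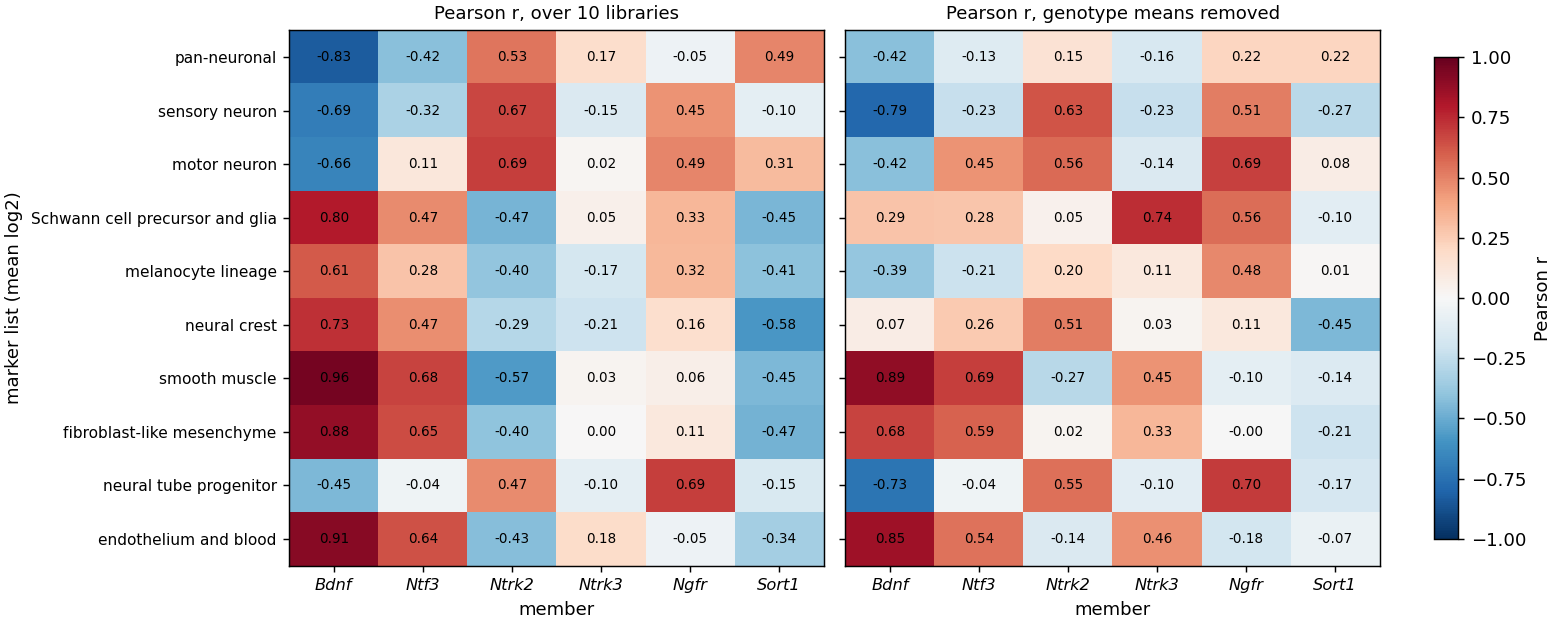
Pearson's r of each tested gene (columns) with the mean log2(FPKM + 0.5) of each marker list (rows), over 10 libraries on the left and with genotype means removed on the right. Bdnf has its highest values with smooth muscle (0.96 and 0.89), and Ngfr with neural tube progenitors (0.69 and 0.70).

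The genes around the receptors were mixed, apart from response genes, of which 8 of 14 tested fell. The 5 lists were chosen with earlier results of these data known, and each is given by its counts and median beside 0.0048 for the median of all genes and the 13.0% lower and 6.53% higher of all genes tested. Among Trk adaptors and effectors, 4 of 20 fell and 1 rose, with a median log2 fold change of 0.11. Under quantile normalization 2 fell and 3 rose, so the balance of this list turns with the scaling. The count of lower genes was also 2 under TPM rescaling, without the filter on low values and without a trend in the prior variance. Shc1, the adaptor that couples receptor kinases to Ras, had 3.37 ± 1.45 FPKM in Ednrb-/- and 11.5 ± 3.66 FPKM in WT libraries (SD, n = 5 each; limma, adjusted p = 0.00412). Its neural relative Shc2 rose, with 16.5 ± 1.33 FPKM in Ednrb-/- and 11.8 ± 1.47 FPKM in WT libraries (limma, adjusted p = 0.00814). Ptpn11, the phosphatase SHP2, fell by 0.40 on the log2 scale (limma, adjusted p = 0.0147). Shc3 and Gab1, named after their values were seen, fell by 0.74 and 0.58 on the log2 scale (limma, adjusted p = 0.0471 and 0.0494). The count of lower genes was 2 without Ednrb-/- replicate 1 or 5 or without WT replicate 2, 3 or 5, and that of higher genes was 2 without Ednrb-/- replicate 2 or 4 or WT replicate 1. Shc3 was lost without Ednrb-/- replicate 1, 2 or 5 and without WT replicate 1, 2, 3 or 5 (limma, adjusted p up to 0.110). Gab1 was lost without Ednrb-/- replicate 1, 3 or 5 and without WT replicate 2, 3, 4 or 5 (limma, adjusted p up to 0.118).

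Among p75 partners and effectors, 4 of 20 tested fell and 1 rose, with a median log2 fold change of -0.23. Arhgdia, whose protein can bind p75, had 157 ± 16.5 FPKM in Ednrb-/- and 215 ± 12.6 FPKM in WT libraries (SD, n = 5 each; limma, adjusted p = 0.00605). Psenen, a subunit of the gamma-secretase that cuts p75 in its membrane segment, rose by 0.47 on the log2 scale (limma, adjusted p = 0.0122). Bex1, which can bind p75, fell by 0.87 on the log2 scale (limma, adjusted p = 0.0161). Tnfrsf19, the receptor TROY, and Irak1, both named after their values were seen, fell by 1.24 and 0.37 on the log2 scale (limma, adjusted p = 0.0167 and 0.0280). Irak1 was lost without Ednrb-/- replicate 2 or 5 or WT replicate 3, 4 or 5 (limma, adjusted p up to 0.0782), and 7 genes of the list were lower without WT replicate 2.

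Of the sortilin family and its trafficking partners, 1 of 11 tested fell and 0 rose, with a median log2 fold change of -0.03. The gene that fell was Grn, progranulin, a secreted ligand of sortilin, with 21.3 ± 5.17 FPKM in Ednrb-/- and 50.5 ± 11.3 FPKM in WT libraries (SD, n = 5 each; limma, adjusted p = 0.00316). Gga1, an adaptor for sortilin in the Golgi, had 18.5 ± 2.54 FPKM in Ednrb-/- and 22.9 ± 2.09 FPKM in WT libraries (limma, adjusted p = 0.0609, and 0.0231 without Ednrb-/- replicate 1). Sorcs3, a relative of sortilin, had 7.83 ± 0.94 FPKM in Ednrb-/- and 6.17 ± 0.58 FPKM in WT libraries (limma, adjusted p = 0.0628, and 0.0301 without Ednrb-/- replicate 4). The count of lower genes was 2 without Ednrb-/- replicate 1 or 4 or without WT replicate 2, and that of higher genes was 1 without Ednrb-/- replicate 4.

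Proteases and their inhibitors that act on precursor neurotrophins were mixed in direction. In that list 3 of 11 tested genes fell and 1 rose, with a median log2 fold change of -0.09. Furin, the protease that cuts precursor neurotrophins in the secretory pathway, had 3.65 ± 1.21 FPKM in Ednrb-/- and 12.5 ± 3.76 FPKM in WT libraries (SD, n = 5 each; limma, adjusted p = 0.00276). Plau, the urokinase that activates plasminogen, had 1.28 ± 0.68 FPKM in Ednrb-/- and 10.7 ± 5.56 FPKM in WT libraries (limma, adjusted p = 0.00323). Pcsk7, a proprotein convertase, had 15.3 ± 1.49 FPKM in Ednrb-/- and 12.2 ± 1.00 FPKM in WT libraries (limma, adjusted p = 0.0336). Pcsk5, another proprotein convertase named after its values were seen, fell by 0.69 on the log2 scale (limma, adjusted p = 0.0430). Pcsk5 was lost without Ednrb-/- replicate 2, 3, 4 or 5 or WT replicate 1, 3, 4 or 5 (limma, adjusted p up to 0.109). Pcsk7 was lost without Ednrb-/- replicate 1, 3 or 4 or WT replicate 1, 3, 4 or 5 (limma, adjusted p up to 0.0826).

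In the list chosen as neurotrophin response genes, 8 of 14 tested fell and 0 rose, and the median log2 fold change was -1.0. Not every gene of the list need be induced by neurotrophins. Most of these genes also answer to other growth factors and to serum. Atf3, a stress-induced factor, had 1.30 ± 0.58 FPKM in Ednrb-/- and 8.74 ± 4.69 FPKM in WT libraries (SD, n = 5 each; limma, adjusted p = 0.00276). Dusp6, the phosphatase that ERK signalling induces against ERK, had 11.6 ± 4.79 FPKM in Ednrb-/- and 39.1 ± 9.65 FPKM in WT libraries (limma, adjusted p = 0.00313). Ier2 fell by 0.82 on the log2 scale (limma, adjusted p = 0.00448). Vgf, a secreted neuropeptide precursor known as a target of neurotrophins, was named after its values were seen and had 4.59 ± 0.82 FPKM in Ednrb-/- and 7.30 ± 0.42 FPKM in WT libraries (limma, adjusted p = 0.00629). Egr1, Junb, Nr4a1 and Spry2, likewise named after their values were seen, fell by 1.79, 2.12, 1.07 and 0.60 on the log2 scale. The count stayed between 8 and 10 with any 1 library left out. The 8 genes fell beside the smooth muscle, mesenchyme, glial and melanocyte markers given above. In the fit with the smooth muscle mean as covariate, which called 0 of all genes, 0 of the list passed (limma). The log2 fold changes were -1.81 for Atf3, -0.86 for Dusp6, -0.69 for Vgf, -0.64 for Nr4a1, -0.51 for Spry2 and -0.35 for Ier2. They were -0.09 for Egr1 and 0.023 for Junb, and differences among the 8 genes were not tested. Standard errors in that fit were 0.60 for Atf3, 0.41 for Dusp6 and 0.28 for Egr1. The smooth muscle means did not overlap between genotypes. The part of cells that carry those markers in this list was not tested.

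**Figure D5:**
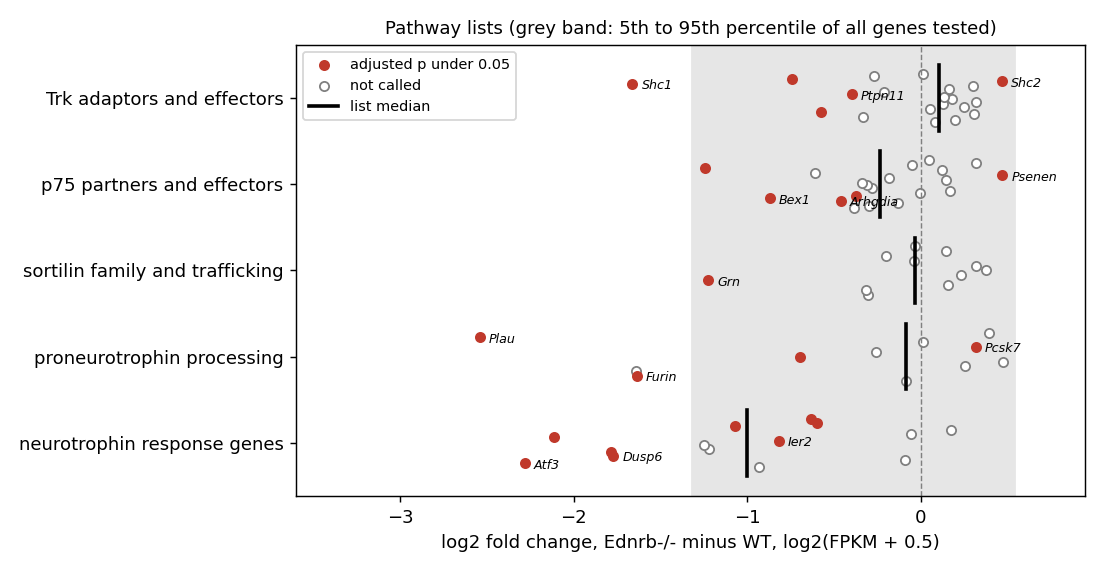
log2 fold changes on the log2(FPKM + 0.5) scale, Ednrb-/- minus WT, of the tested genes in 5 lists (rows); filled points passed an adjusted p of 0.05 by limma, bars mark list medians and the grey band runs from the 5th to the 95th percentile of all genes tested. The response gene list has its median at -1.0, and those of the other lists lie between -0.23 and 0.11.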

How the data were processed

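RNA sequencing values were analysed for 10 libraries. The authors deposited FPKM, fragments per kilobase of gene and per unit of library depth, in 1 table with a column per library, per the file headers, and 0 further columns of values. Tools named, per the submitters' processing notes, were HISAT2 2.0.5, featureCounts 1.5.0-p3 and fastp, with the build mm10, while the table's identifiers are of the C57BL/6NJ annotation; no coordinates were converted. Whether counting used strand was not stated. FPKM times the deposited gene length, in bases, gave whole multiples of 1 read for 100% of values (tolerance 0.01).

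limma 3.58.1 in R 4.3.3 fitted log2(FPKM + 0.5) on genotype with a prior variance that follows the mean, for genes with at least 0.5 FPKM in at least 5 libraries; P values were adjusted by Benjamini-Hochberg over 15156 genes (threshold 0.05). Fold changes are Ednrb-/- minus WT on that scale, which understates low genes. The fit was tested on simulated data, with noise drawn for each gene on its own. Shifts of cell makeup shared by many genes were not simulated, so that test does not cover them. Named were all 7 genes, up to 3 of lowest p per list and the 2 likest per tested gene by r; others are said to be chosen after their values were seen. Not all genes under this rule are reported here, and 1 of them was left out of its list's counts. Members and lists were chosen with earlier results of these data known. Pairs of libraries of 1 genotype differed, with a chi-square that averaged at least 14.8 over genes, where sampling alone gives 1, so each entered singly; nothing says that explants came from separate litters, and p-values measure the spread between these libraries.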

Additional observations from a re-analysis of the deposited data

Results flagged for a closer look

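Within each genotype, a library was looked for that stood apart from the other 4 by Dixon's test at 95%, over 14 groups (7 genes in 2 genotypes); chance alone flags about 1 in 20 groups. Ednrb-/- replicate 4 stood apart as high for Ngfr, at 67.2 FPKM beside 31.6 to 40.3 FPKM in the other Ednrb-/- libraries, and for Ntrk3, at 5.76 FPKM. Without it the log2 fold change was -0.27 for Ngfr and -0.0086 for Ntrk3, and neither passed the threshold (limma, adjusted p = 0.340 and 0.975). Ednrb-/- replicate 3 stood apart for Ntf5, at 0.223 FPKM, which is 8 reads.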

How the results depend on the processing

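Of 23 alternatives, the 21 without a covariate kept Bdnf lower and past the threshold, with log2 fold changes from -1.77 to -1.21 and adjusted p from 0.00112 to 0.0448. The other 5 tested genes passed under none of the 23, the lowest adjusted p being 0.0751. With smooth muscle as a covariate 0 genes were called (1138 at an unadjusted p under 0.05), 0 of the 6 tested were lower, and the sign turned for Bdnf (0.14), Ntf3 (0.52) and Junb (0.023). With the pan-neuronal mean as a covariate 0 were called (271 unadjusted), 0 of the 6 were lower, the value of Bdnf was -0.12 with a standard error of 1.02, and the sign turned for Sort1 (-0.027), Psenen (-0.34), Ptpn11 (0.12), Gga1 (0.22), Nr4a1 (0.056), Pcsk5 (0.12), Irak1 (0.16) and Tnfrsf19 (0.60). Neither mean overlapped between genotypes. With 1 library left out, the count of changed genes ran from 1945 (without WT replicate 3; 1955 without replicate 5 and 1960 without replicate 4) to 3276, against 2956, members lower stayed at 1 and members higher at 0; Ngfr ran from -0.27 (without Ednrb-/- replicate 4) to 0.026 (without WT replicate 2), and Ntrk3 from -0.0086 (without Ednrb-/- replicate 4) to 0.19 (without WT replicate 3). Of 23 called pathway genes, 18 were called with any 1 library left out.

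Replicate numbers did not pair the libraries: deviations of same-numbered libraries had correlations from -0.16 to 0.15, and 1 of 10 libraries correlated best with its own number. With the replicate block 1877 genes were called, Bdnf kept its call (adjusted p = 0.0332) and 7 called pathway genes lost theirs. Counts of pathway genes moved by over 1.5 times in places: with the block, lower genes were 1 among Trk adaptors and 2 among p75 partners and higher genes 0 in the processing list; with array weights, lower genes were 9 among p75 partners and 3 in the sortilin list, and higher genes 3 among Trk adaptors, 1 in the sortilin list and 2 in the processing list. TPM rescaling gave 0 higher in the processing list, quantile normalization and voom gave 1 higher in the sortilin list, and voom gave 2 higher among Trk adaptors. The voom fit on whole reads recovered from FPKM called 3140 genes. Depth limits Ntf5, with at most 8 reads in a library, and to a lesser extent Ntf3.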
